A study of Rattus norvegicus with 6 samples.

Results

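The cardiac myosin heavy chain genes Myh6 and Myh7 were followed in neonatal rat ventricular cardiomyocytes treated with erastin. They are 2 of 34052 features in an FPKM table (fragments scaled by feature length and library total) and were chosen by gene ID, ENSRNOG00000025757 for Myh6 and ENSRNOG00000016983 for Myh7. The rule that picks them uses no measured value, although earlier results of these data were known when it was set. The cells were primary cultures of ventricular muscle cells from newborn rats, and the strain, the age in days and the litters are not given in the labels. The erastin group (n = 3 libraries) received 10 µM erastin for 24 h. The control group (n = 3 libraries) is titled as control, and the name of the deposited data calls it vehicle. Erastin inhibits the antiporter that brings cystine into the cell in exchange for glutamate. It is a common inducer of ferroptosis, a form of cell death that needs iron and runs through the peroxidation of lipids, and the study asked how the expression profile of cardiomyocytes changes under it. Whether replicate libraries stem from separate cultures is not stated in the labels, so every p-value below rests on the spread among these libraries alone, and that spread may be technical.

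Myosin heavy chain is the motor protein of the thick filament of the sarcomere. Myh6 encodes the alpha chain, which has the faster ATPase, and Myh7 encodes the slower beta chain. Both are expressed in cardiac muscle, where the beta chain dominates in the ventricle of the fetal rodent and the alpha chain takes over after birth under thyroid hormone. A shift of the balance towards Myh7 is a widely used marker of the fetal gene program in stressed rodent heart.

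Both genes are hosts of a microRNA, and these sequences are shown because a change of the host transcript is the setting in which they are usually discussed. In RefSeq (assembly GRCr8) Mir208a lies within Myh6 and Mir208b within Myh7, on the same strand as the host. Neither microRNA was measured in these poly(A) libraries. The mature sequences are given 5′ to 3′ with the seed, bases 2 to 8, in capitals.
rno-miR-208a-3p (Myh6, chr15:32395568-32395585, minus strand): aUAAGACGagcaaaaagc
rno-miR-208b-3p (Myh7, chr15:32421648-32421665, minus strand): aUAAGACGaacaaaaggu
rno-miR-208a-5p (Myh6, chr15:32395599-32395620, minus strand): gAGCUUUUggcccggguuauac
rno-miR-208b-5p (Myh7, chr15:32421681-32421700, minus strand): aAGCUUUUugcucgcguuau
The 3p arms of both hosts share the seed UAAGACG, and the 5p arms share the seed AGCUUUU. The arms of one pair therefore differ only outside the seed or in their length.

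Myh6 and Myh7 are direct neighbours on chromosome 15, with no gene annotated wholly between them. The RefSeq windows of 250 bases before to 50 bases after one annotated start of each gene are shown because both transcripts moved in the same direction. These starts lie inside the gene records, which reach 1966 bases (Myh6) and 1657 bases (Myh7) further upstream, so the windows may not hold the main promoter of either gene. Both strands were searched for 5 motifs of 6 letters, and capitals mark the only match. CATTCC is the core of the element bound by TEAD factors in many cardiac genes. AGGTCA is the half-site of the thyroid hormone receptor and other nuclear receptors. TATAAA is the box that positions the start of transcription. AGATAA is bound by factors such as Gata4. CACGTG is an E-box. None of these motifs contains another.
Myh6 (GRCr8, chr15:32411648-32411947, minus strand): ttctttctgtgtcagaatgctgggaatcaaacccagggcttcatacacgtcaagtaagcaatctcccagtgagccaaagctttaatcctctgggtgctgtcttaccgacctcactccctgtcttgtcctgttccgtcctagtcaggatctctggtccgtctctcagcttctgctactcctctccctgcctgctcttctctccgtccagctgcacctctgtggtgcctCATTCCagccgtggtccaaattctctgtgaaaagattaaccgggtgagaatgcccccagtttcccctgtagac
Myh7 (GRCr8, chr15:32438145-32438444, minus strand): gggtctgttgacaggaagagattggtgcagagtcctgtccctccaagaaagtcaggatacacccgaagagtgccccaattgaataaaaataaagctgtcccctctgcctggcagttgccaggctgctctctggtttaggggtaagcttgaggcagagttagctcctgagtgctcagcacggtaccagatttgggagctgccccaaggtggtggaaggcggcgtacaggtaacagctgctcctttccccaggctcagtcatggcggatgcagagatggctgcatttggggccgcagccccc
The Myh6 window holds CATTCC once, beginning 23 bases upstream of the start, and the Myh7 window holds none of the 5 motifs. Of 33469 RefSeq windows of this length, 14.2% hold CATTCC, 16.2% AGGTCA, 14.2% TATAAA, 11.6% AGATAA and 6.42% CACGTG. These counts describe the windows printed and say nothing of sequence further upstream.

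The library total that scales FPKM was read from the steps of the FPKM values. These are whole multiples of what 1 read is worth for a feature. The totals of the 6 libraries ran from 11126968 to 14914827 reads, with the largest in the control group. A read here is 1 unit counted for FPKM, which may be a fragment with both ends read. Reads outside these totals are not seen. Both genes rested on many reads, at 26093 or more in every library. The counted lengths were 6028 bases for Myh6 and 5923 bases for Myh7. Counting error was therefore small, with an expected coefficient of variation of 0.264% and 0.555% for Myh6 in control and erastin libraries and of 0.331% and 0.582% for Myh7. It covers counting only, since the reads carry no stated molecular identifiers.

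Myh6, the alpha chain, was at 1826, 1883 and 2024 FPKM in control replicates 1 to 3. Erastin replicates 1 to 3 were at 488, 521 and 419 FPKM. All 3 erastin libraries lay below all 3 control libraries, and the lowest control value was 3.50 times the highest erastin value. The mean went from 1911 ± 102 FPKM in the control group to 476 ± 52.5 FPKM in the erastin group (SD, n = 3), or 4.01-fold lower. On the log2(FPKM + 1) scale the gene fell by 2.01 (SE 0.086, limma adjusted p = 2.98e-06 over all features tested). The fold change on this scale differs little from that of the means because the pseudocount is small beside these levels.

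Myh7, the beta chain, was at 1184, 1258 and 1278 FPKM in control replicates 1 to 3. Erastin replicates 1 to 3 were at 462, 462 and 396 FPKM. Again the groups did not overlap, and the lowest control value was 2.56 times the highest erastin value. Its mean went from 1240 ± 49.8 FPKM to 440 ± 38.1 FPKM (SD, n = 3), 2.82-fold lower, with 35.5% of the control level left against 24.9% for Myh6. On the log2(FPKM + 1) scale Myh7 fell by 1.50 (SE 0.065, limma adjusted p = 9.57e-07). A single-value exact two-sided permutation test gave p = 0.1 for each gene, the smallest that 3 against 3 libraries can give.

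**Figure D1:**
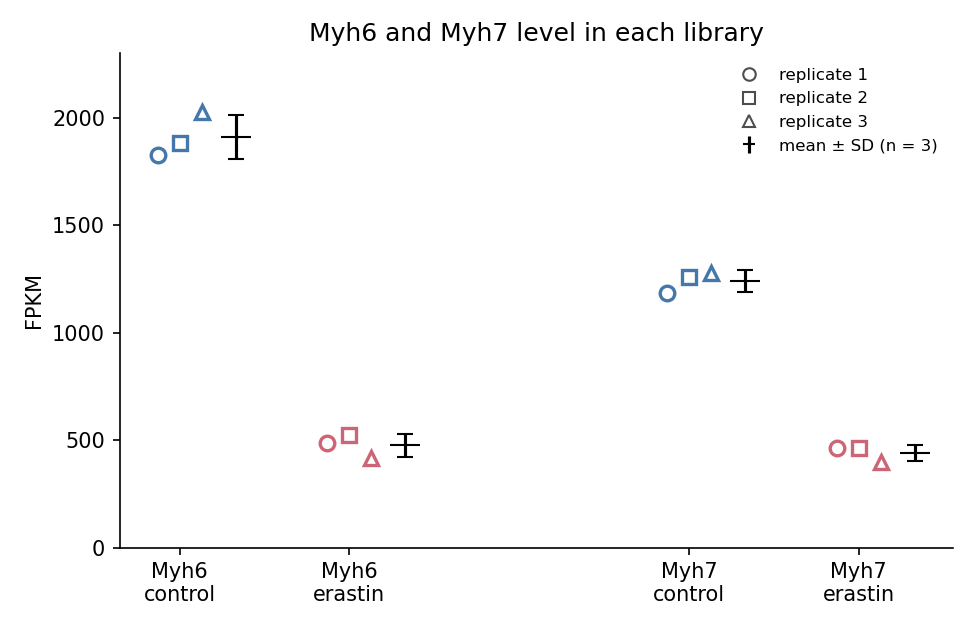
FPKM (vertical axis, linear from 0) of Myh6 and Myh7 in each control and erastin library, with replicates as different symbols and the mean ± SD (n = 3) as black bars. The erastin libraries lie at 396 to 521 FPKM for both genes, below every control library, and the gap between Myh6 and Myh7 seen in control libraries is nearly closed.

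These calls stand against a broad change of the transcriptome. Of 13576 features tested, 66.4% passed the adjusted p of 0.05 in either direction, 24.1% passed it as lower in erastin, and the groups did not overlap with erastin lower in 26.3%. A call or a lack of overlap alone therefore sets neither gene apart, and the size of the fall says more. Falls on the log2 scale of at least 1 that passed the test made up 4.75% of features. Of the tested features, 0.648% (88) had a log2 fold change as low as that of Myh6. For Myh7 the share was 1.86% (253), each count including the gene itself. The pseudocount shrinks the fold changes of features near 1 FPKM, so weakly expressed features can hardly reach such falls. Among the 100 most abundant features, 4 were as low as Myh6 and 10 as low as Myh7, each gene counted. The median log2 fold change over all features tested was 0.14. Relative to the median log ratio of each library, the log2 fold changes were -2.14 for Myh6 and -1.62 for Myh7, and 31.6% of features were called lower on that scale.

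**Figure D2:**
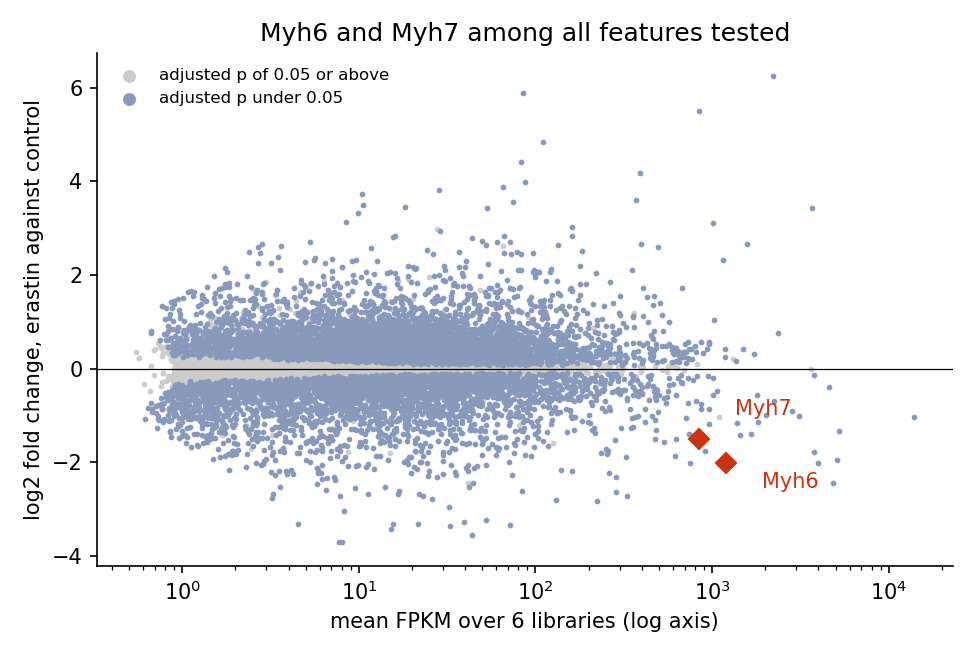
Log2 fold change of erastin against control on the log2(FPKM + 1) scale (vertical axis) against mean FPKM over the 6 libraries (horizontal, log axis) for the 13576 features tested, coloured by the limma adjusted p, with Myh6 and Myh7 as red diamonds. Both genes sit at the abundant end and below the main cloud, at -2.01 and -1.50.

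In control libraries both genes were among the most abundant transcripts. They are defining genes of the labelled cell type. Myh6 ranked 18 to 20 and Myh7 ranked 25 to 32 by FPKM in control libraries. In erastin libraries Myh6 ranked 125 to 160 and Myh7 ranked 144 to 172. Myh6 stayed above Myh7 in all 6 libraries. Among the 100 most abundant features, ranked by mean FPKM, 49 rose and 44 fell in limma, 4 had a log2 fold change as low as that of Myh6 and 10 one as low as that of Myh7, each gene again counted. Other cardiomyocyte markers, and markers of fibroblasts or other cells that such cultures can hold, were not analysed here, since no source used here pairs them with the IDs of the table. In these bulk samples, fewer cardiomyocytes and less myosin RNA per cardiomyocyte cannot be told apart.

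The sum of Myh6 and Myh7, the main sarcomeric heavy chain message of the ventricle, was 3010, 3141 and 3303 FPKM in control replicates 1 to 3. In the erastin replicates 1 to 3 the sum was 951, 983 and 814 FPKM. The groups lay far apart, with means of 3151 ± 147 and 916 ± 89.4 FPKM (SD, n = 3), a 3.44-fold lower sum in erastin libraries. The difference on the log2 scale was -1.79 (exact two-sided permutation p = 0.1, the smallest possible here). The pair took 1.80%, 1.88% and 1.98% of all reads in control replicates 1 to 3, compared with 0.568%, 0.588% and 0.487% for erastin replicates 1 to 3.

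The balance between the chains also differed between the groups. The Myh7 to Myh6 ratio of FPKM was 0.648, 0.668 and 0.631 in control replicates 1 to 3, compared with 0.947, 0.885 and 0.946 for erastin replicates 1 to 3. Every erastin library had a higher ratio than every control library, and every library stayed below 1. The mean ratio went from 0.649 ± 0.0183 to 0.926 ± 0.0353 (SD, n = 3), which is 1.43 times the control ratio. The log2 ratio had a mean of -0.62 ± 0.041 in the control group and -0.11 ± 0.056 in the erastin group (SD, n = 3). These means differ by 0.51, and the difference ranged from 0.41 to 0.58 over the 9 pairs of a control and an erastin library. The exact two-sided permutation p was 0.1, the smallest that this design can give, so the test cannot pass 0.05 whatever the size of the difference. Multiplying all values of a library by one factor leaves its ratio as it is. Quantile normalization, which is not such a factor, gave a difference of 0.39 (exact two-sided permutation p = 0.1).

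The higher ratio went with a fall of both chains and not with a rise of Myh7. Myh6 lost 1435 FPKM between the group means and Myh7 lost 800 FPKM. The beta chain made up 39.4 ± 0.674% of the FPKM of both genes in the control group and 48.1 ± 0.961% in the erastin group (SD, n = 3). Within a library, Myh6 exceeded Myh7 by 625 to 746 FPKM in the control group and by 22.6 to 59.9 FPKM in the erastin group. Myh6 was thus the higher of both in 3 of 3 libraries of each group. The exact sign-flip p, computed on the log2 ratio, was 0.25 in each group, the smallest that 3 libraries can give.

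**Figure D3:**
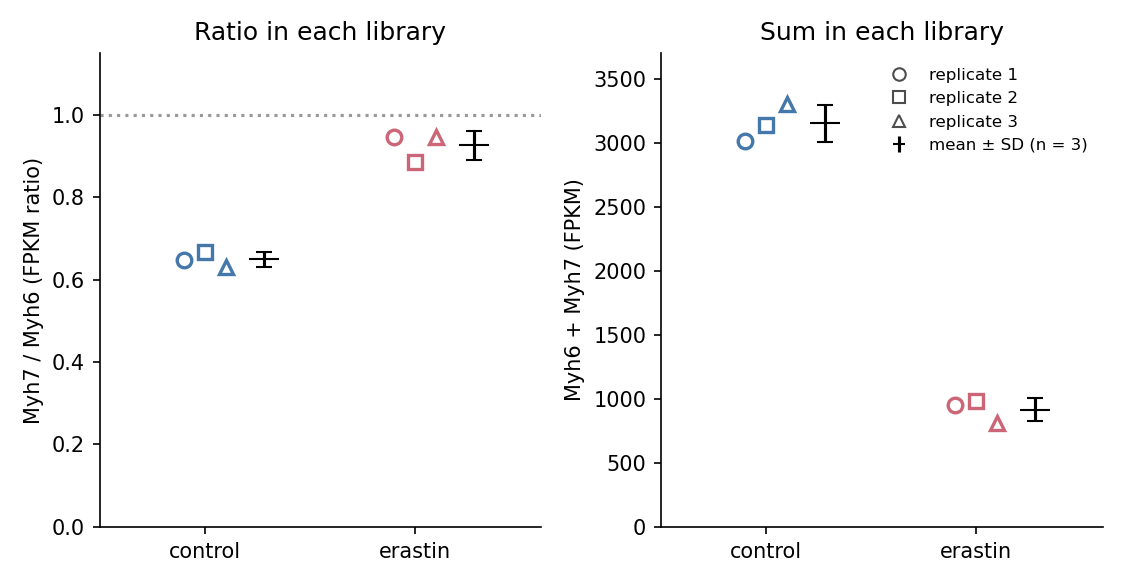
Left, the ratio of Myh7 to Myh6 FPKM, and right, the summed FPKM of both genes, in each control and erastin library (both axes linear from 0, symbols for replicates, black bars for mean ± SD, n = 3, dotted line at a ratio of 1). The ratio is 0.631 to 0.668 in control and 0.885 to 0.947 in erastin libraries, while the sum drops from 3010 to 3303 FPKM to 814 to 983 FPKM.

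Myh6 and Myh7 have closely related coding sequences, and the sources used here do not state how reads that fit both were counted. The level of each gene, the sum and the ratio are uncertain to that extent. RefSeq also places genes on the opposite strand across both loci: the long noncoding RNA LOC108352923 and Mir3546 over Myh6, and the long noncoding RNA LOC120096985 and the protein-coding LOC120096984 over Myh7. The libraries mark the strand, but whether the counting used it is not given. The part of such reads in the results was not tested.

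Variation within a group was larger than counting error for both genes. The coefficient of variation was 5.34% in control and 11.0% in erastin libraries for Myh6, and 4.01% and 8.66% for Myh7. Control replicate 3 was the highest control library for both genes, and erastin replicate 3 the lowest erastin library for both. The ratio varied less evenly: in the erastin group replicates 1 and 3 were at 0.947 and 0.946, although their Myh6 levels were 488 and 419 FPKM, and replicate 2 stood lower at 0.885 with the highest Myh6 level. Counting alone gives the log2 ratio of an erastin library an SD of 0.0109 to 0.0124, below the SD of 0.056 seen between these libraries.

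The features most like each gene were found by the distance between log2(FPKM + 1) profiles over the 6 libraries, each profile centred on its own mean, among 6787 other features at or above the median level of 12.5 FPKM. Nearest to Myh6 was ENSRNOG00000006776, at 113 ± 7.01 FPKM in the control group and 27.7 ± 2.44 FPKM in the erastin group (SD, n = 3), at a distance of 0.0843. Nearest to Myh7 was ENSRNOG00000014722, at 74.2 ± 2.66 and 25.7 ± 1.77 FPKM (SD, n = 3), at a distance of 0.0496. Both were far less abundant than the myosin they resembled, and the sources used here give no symbol for them. The next features lay at 0.132 and 0.192 from Myh6 and at 0.0906 and 0.0923 from Myh7. The myosins lay at a distance of 0.634 from each other. With 2 groups of libraries, this distance mostly reflects the gap between log2 fold changes, -2.01 for Myh6 and -1.50 for Myh7. The nearest features had log2 fold changes of -1.99 (to Myh6) and -1.50 (to Myh7). The distances and ranks therefore largely restate the fold changes and are not separate evidence. Of the 6787 features, Myh7 was the 89th nearest to Myh6, and Myh6 the 253rd nearest to Myh7.

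Both genes stayed lower in erastin, with an adjusted p under 0.05, in each of the 16 processing alternatives run for them. The log2 fold change lay between -2.14 and -1.92 for Myh6 and between -1.62 and -1.42 for Myh7. These ranges did not overlap, but all alternatives reuse the same 6 libraries. The ranges therefore describe the processing and do not test whether Myh6 fell further than Myh7. Leaving out erastin replicate 3, the library with the lowest level of both genes, gave -1.92 for Myh6 and -1.42 for Myh7.

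**Figure D4:**
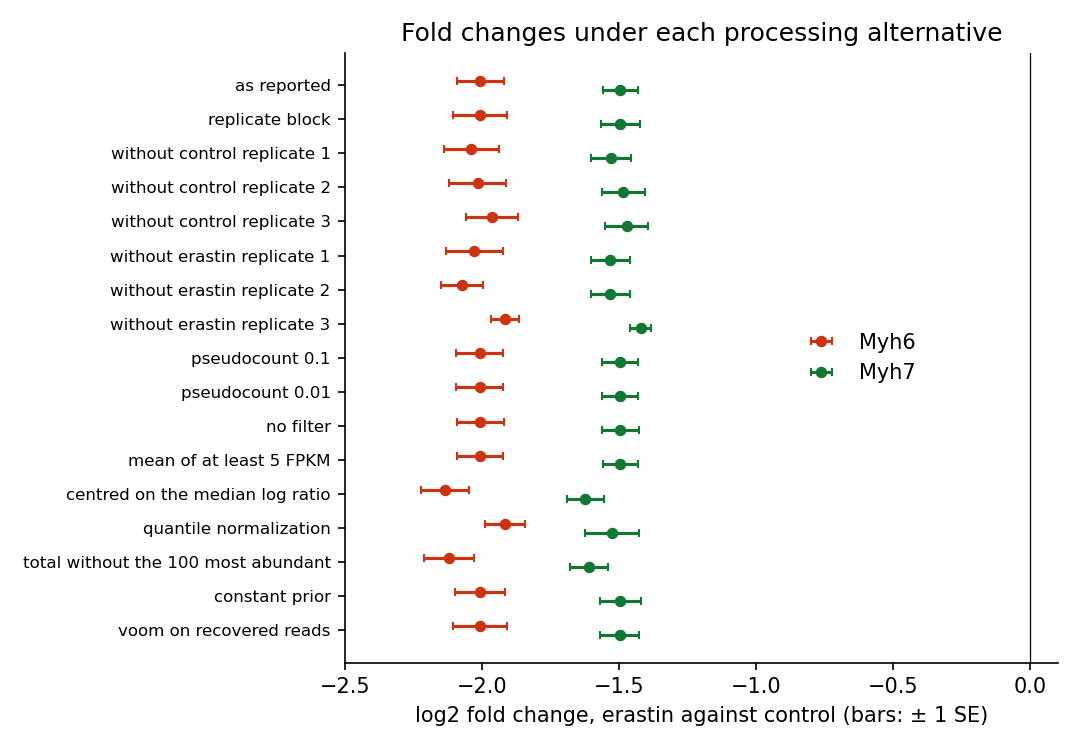
Log2 fold change of Myh6 (red) and Myh7 (green) in erastin against control libraries (horizontal axis, points with bars of ± 1 SE) as reported and under each of the 16 alternatives (rows). Myh6 stays between -2.14 and -1.92 and Myh7 between -1.62 and -1.42, all below 0.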

How the data were processed

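RNA from 6 libraries was compared, 3 control and 3 erastin, grouped by title. Per the labels' protocols, libraries were made from fragmented poly(A) RNA with a dUTP-marked second strand, and both ends of each fragment were read on a NovaSeq instrument. The authors deposited FPKM, one column per library. The submitters' processing notes list HISAT2 2.0.5 and DESeq2 without saying what each was used for. The sources used here do not state how reads were counted, or on which build and annotation.

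The 6 columns correspond to the 6 titles. Of the FPKM values above 0 of tested features, 100% equalled whole reads times a step within a relative tolerance of 1e-06. The length of each feature was searched for under the same tolerance, so this share is not a separate check of the reads. The totals were 11508364, 14914827 and 11506854 reads (control replicates 1 to 3) and 11149351, 12017459 and 11126968 reads (erastin replicates 1 to 3). Between replicates the chi-square per feature had a mean of 2.92 to 5.35 and a median of 0.598 to 0.766, both above sampling noise. How the excess is spread over features was not tested. No library was treated as a copy.

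A feature entered the test if 3 or more libraries reached 1 FPKM. The test was limma 3.58.1 (R 4.3.3) fitted to log2(FPKM + 1), its prior trended and robust, and Benjamini-Hochberg adjustment over all 13576 features at 0.05. The recovery and the test were checked on simulated data. Ratio and sum were compared per library with exact two-sided permutation tests. Python 3.11.15, numpy 2.4.6, pandas 2.3.3 and matplotlib 3.10.9 were used otherwise.

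The rule for the genes is by ID, but the genes, the lists and the tests were chosen with earlier results of these data known. Symbols of both genes come from the rule that chose them. Genes were to be named from 15 lists by symbol, and as likeness to each gene. The RefSeq table matched 0 of the 34052 IDs, so the lists were not analysed here. Sequences are from RefSeq, assembly GRCr8, and matched both genes by symbol. Same-numbered libraries are not paired by the labels. Alternatives were a replicate block, each library left out, other pseudocounts, filters, scalings and priors, recovered reads and a minimum fold. Quantile normalization of the ratio was added after the data were seen.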

Additional observations from a re-analysis of the deposited data

How the results depend on the processing

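The log2 ratio difference, 0.51 as reported, was 0.49 to 0.54 with 1 library left out and within that range with a pseudocount, with recovered reads and by same-number differences. Quantile normalization, added after the data were seen, gave 0.39, and the cause was not tested. The summed level, at -1.79, moved by more than the spread between libraries only under centring on the median log ratio, to -1.91, because centring subtracts the shift of the median feature. Leaving out 1 library gave -1.84 to -1.70 for the sum, -2.08 to -1.92 for Myh6 and -1.53 to -1.42 for Myh7, and 8347 to 8522 changed features against 9011. Quantile normalization brought Myh6 to -1.92 and Myh7 to -1.53. A minimum absolute log2 fold change of 1 left 1344 changed features by construction, 699 higher and 645 lower, and both genes among the lower. As deposited, 5744 features rose and 3267 fell. After centring 4253 rose and 4287 fell. With the replicate block, 8768 features changed, Myh6 was at -2.01 (limma adjusted p = 0.000257) and Myh7 at -1.50 (limma adjusted p = 6.15e-05), and the mean of same-number differences gave 0.51 for the ratio and -1.79 for the sum (exact sign-flip p = 0.25, the smallest possible). Deviations of same-numbered libraries correlated at -0.03, 0.07 and 0.03, and those of differently numbered libraries at -0.07 to 0.04. No pairing by number was seen, but 3 libraries a group cannot exclude it. No other result changed its call under the block. The count tests planned in case the table held counts were not run. Depth does not limit these genes. The number of libraries does, since 3 against 3 cannot take an exact test below 0.1.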
